A study of Saccharomyces cerevisiae with 8 samples.

Results

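The 10 genes of Saccharomyces cerevisiae described here answer to heme and oxygen and were chosen by name: the regulators ROX1 and HAP1, the heme synthesis genes HEM1, HEM13 and HEM14, the ADP/ATP carrier genes AAC1, AAC3 and PET9, and the translation factor genes ANB1 and HYP2. They are 10 of the 5449 yeast genes on the array, and each was read by 1 probe set. The 8 Affymetrix Yeast Genome 2.0 arrays fall into 4 groups of 2. The groups are NFRI 3145, labelled tolerant of acetic acid (AcOH), with 0.6% AcOH for 30 min, NFRI 3145 with 0% AcOH, NBRC 0224, labelled sensitive, with 0.6% AcOH for 30 min, and NBRC 0224 with 0% AcOH, all at 30 degree. The labels give no time for the 0% cultures, no aeration, growth phase or genotype, and no word on whether the 2 arrays of a group came from separate cultures, so the p-values measure the spread between these samples, which may be technical. Acid and anything else done to the 0.6% cultures alone cannot be told apart. An array reads the RNA of a whole culture, so fewer expressing cells and less RNA per cell cannot be told apart either.

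As background, yeast reads oxygen partly through heme, whose synthesis uses oxygen. With heme present, the activator Hap1 turns on genes of respiration and the gene of the repressor Rox1, and Rox1, with the corepressor Tup1-Cyc8 (also called Tup1-Ssn6), holds the hypoxic genes low. Without oxygen or heme ROX1 expression drops and the hypoxic genes are released. Several come as pairs with an aerobic counterpart: AAC3 stands beside PET9 (also called AAC2) among the ADP/ATP carriers of the inner mitochondrial membrane, and ANB1 beside HYP2 as genes of eIF5A. HEM13 is itself repressed by Rox1, and Rox1 represses its own gene.

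Signals are on the arrays' linear intensity scale. A probe set counted as above background on an array when it exceeded the 95th percentile of 1746 probe sets for another yeast species on the same array, which lay between 31.5 and 43.9 units. The 3879 genes above background on at least 2 of the 8 arrays were tested, all 10 genes among them. Between the 2 arrays of a group, r over the tested genes was 0.968 to 0.981, and 5.47% to 12.8% of the genes differed by more than 2-fold. Differences are log2 values with the standard error (SE) of the limma fit over all 8 arrays. A gene was called when its Benjamini-Hochberg adjusted p over all tested genes was under 0.05. Lack of overlap between groups of 2 arrays is given as a description, and its share over all tested genes was not counted. In NBRC 0224, acid-treated and untreated arrays of ROX1 and HEM3 did not overlap (adjusted p = 0.70 and 0.51, limma). A fold given as "at least" takes signals below background as the background. The adjusted p beside it is that of the fit to the recorded signals. The median tested gene was not centred at 0: it lay at -0.07 for the acid response of NFRI 3145 and -0.11 for that of NBRC 0224, and at -0.23 for the strain difference with acid and -0.06 without it.

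The 10 genes covered most of the signal range. ROX1 lay at the floor, between 19.9 and 43.5 units, and passed the background on 2 of 8 arrays, 1 of NFRI 3145 with 0% AcOH and 1 of NBRC 0224 with 0.6% AcOH. HYP2 lay at the top, between the 99.2nd and 99.8th percentile of the tested genes on every array. HEM1, PET9 and, without acid, HEM13 were also very bright, and bright probe sets can flatten a change in RNA; whether they did here was not tested. Signals of different probe sets do not rank the genes' RNA, so each gene is compared with itself. All 10 genes have probe sets whose names end in _at, but whether ANB1 and HYP2, or the 3 carrier genes, cross-hybridise was not tested.

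**Figure D1:**
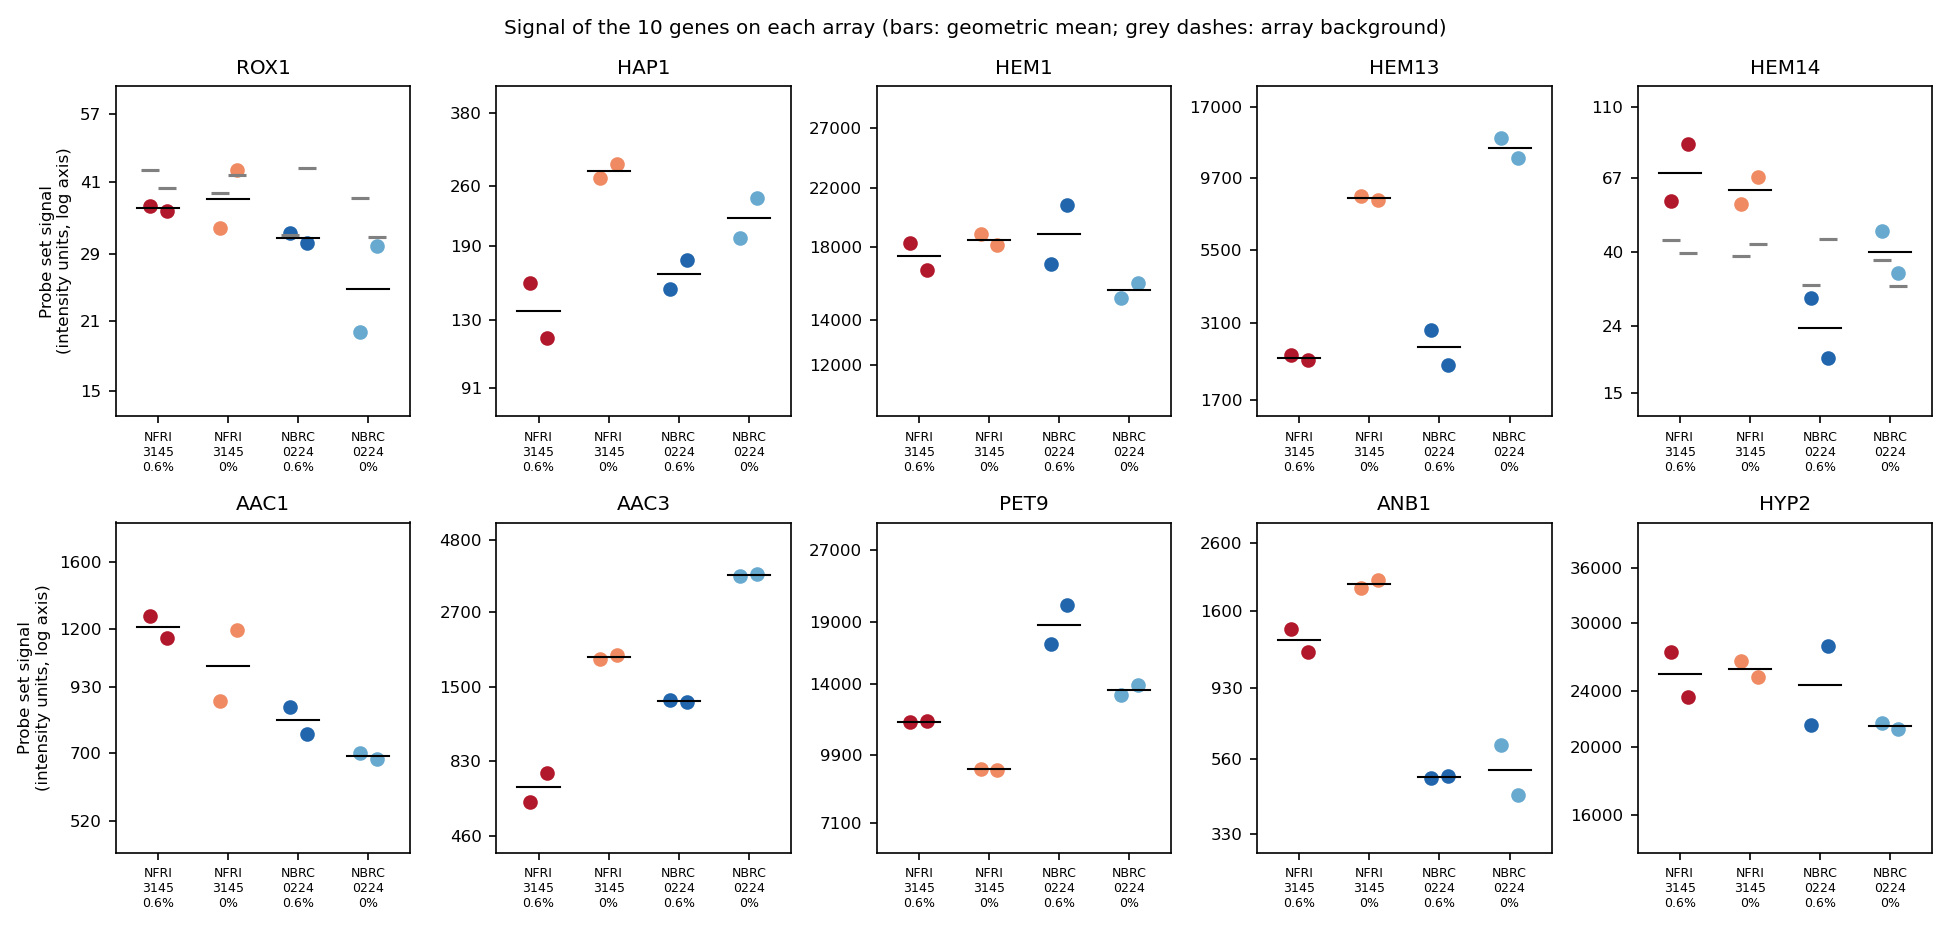
Signal of each of the 10 genes on each array (log axis, intensity units; the scale differs between panels); points are arrays, black bars the geometric mean of the 2 arrays of a group, and grey dashes the array's background where it falls in range. HEM13 and AAC3 were lower on every 0.6% AcOH array than on every 0% AcOH array of either strain, ANB1 was higher on every NFRI 3145 array, and ROX1 sat at or near background throughout.

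HEM13 and AAC3, both hypoxic genes, were lower with acetic acid in both strains, and these were the clearest changes among the 10 genes. In NFRI 3145, 3 of the 10 genes were called, HEM13, AAC3 and HAP1, all lower, where 13.5% of all tested genes were called. In NBRC 0224, 3 of the 10 were called, HEM13 and AAC3 lower and PET9 higher, where 8.4% of all tested genes were called. The median difference of the 10 genes was -0.07 in NFRI 3145 and 0.06 in NBRC 0224, beside the all-gene medians of -0.07 and -0.11.

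HEM13 encodes coproporphyrinogen III oxidase, a heme synthesis enzyme that consumes oxygen and whose gene is a classical target of Rox1. In NFRI 3145, HEM13 read 2415 and 2328 units with 0.6% AcOH, against 8447 and 8164 with 0% AcOH. In NBRC 0224, HEM13 read 2937 and 2247 units with 0.6% AcOH, against 13314.5 and 11324 with 0% AcOH. The groups were far apart in each strain, and the acid-treated arrays of both strains lay in one range. HEM13 was 3.50-fold lower with acid in NFRI 3145 (log2 difference -1.81 ± 0.17 SE, adjusted p = 6.5e-05, limma, n = 2 each) and 4.78-fold lower in NBRC 0224 (-2.26 ± 0.17, adjusted p = 2.5e-05, limma). The order of its levels was NBRC 0224 without acid, NFRI 3145 without acid, then the 2 acid-treated groups, which did not differ beyond their spread.

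AAC3 encodes the ADP/ATP carrier used under anaerobic conditions. In NFRI 3145, AAC3 read 602 and 757 units with 0.6% AcOH, against 1863 and 1931 with 0% AcOH. In NBRC 0224, AAC3 read 1349.9 and 1331 units with 0.6% AcOH, against 3619.8 and 3676 with 0% AcOH. No array of one condition reached the other within a strain. AAC3 was 2.81-fold lower with acid in NFRI 3145 (-1.49 ± 0.18, adjusted p = 4.9e-04, limma) and 2.72-fold lower in NBRC 0224 (-1.44 ± 0.18, adjusted p = 7.6e-04, limma). Its 4 groups were all apart, in the order NBRC 0224 without acid, NFRI 3145 without acid, NBRC 0224 with acid and NFRI 3145 with acid. The calls of HEM13 and AAC3 in both strains held under all 17 other settings, the 8 that each left out 1 array among them.

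**Figure D2:**
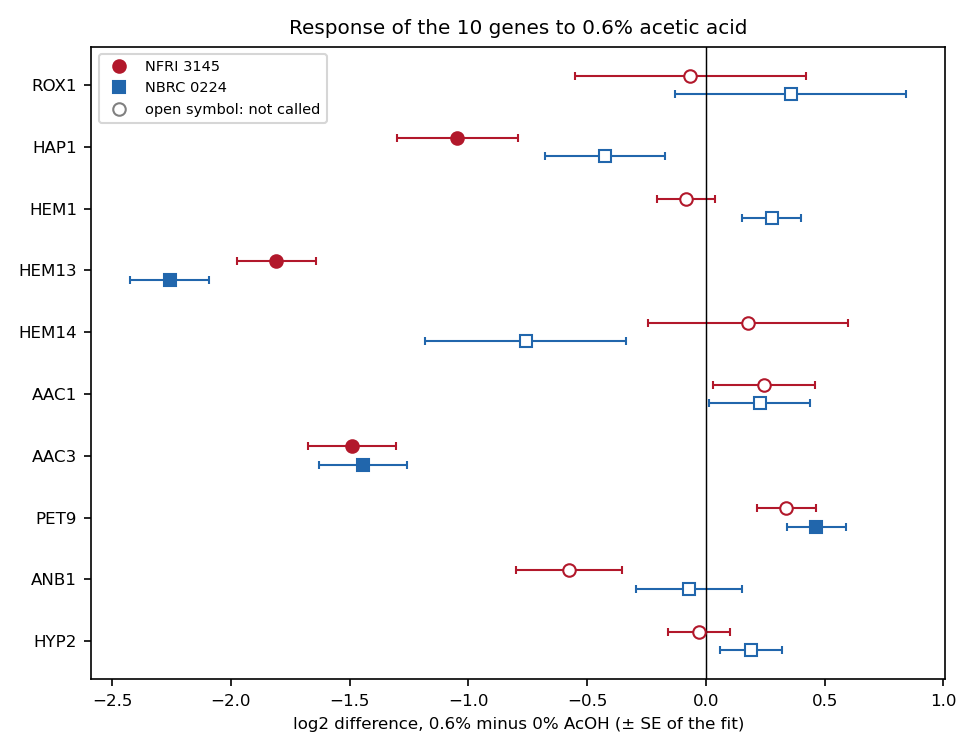
Log2 difference of each of the 10 genes, 0.6% minus 0% AcOH, in NFRI 3145 (red circles) and NBRC 0224 (blue squares); bars are ± 1 SE of the limma fit, and filled symbols mark calls. HEM13 and AAC3 lie below -1.4 in both strains and HAP1 at -1.05 in NFRI 3145. The other points lie between -0.57 and 0.46, leaving aside those of ROX1 and of HEM14 in NBRC 0224. ROX1 rests on signals at or near background and HEM14 in NBRC 0224 on acid-treated signals below it, so these points are not measured changes.

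The carrier PET9, the main ADP/ATP carrier of respiring cells, pointed the other way from AAC3. In NFRI 3145, PET9 read 11637 and 11673 units with 0.6% AcOH, against 9238 and 9191 with 0% AcOH. In NBRC 0224, PET9 read 17025.5 and 20622 units with 0.6% AcOH, against 13263 and 13922 with 0% AcOH. The acid-treated arrays were higher in each strain with no overlap. PET9 was called in NBRC 0224 (0.46 ± 0.12, adjusted p = 0.043, limma) and missed the threshold in NFRI 3145 (0.34 ± 0.12, adjusted p = 0.095, limma). In NBRC 0224 the call was lost in a fit of the groups compared alone (adjusted p = 0.14, limma) and with no mean-variance trend (0.21). It was also lost with no filter on dim probe sets (0.081) and with the replicate number as a block (0.052). The NBRC 0224 call held in 1 of the 8 fits that left out an array, the one without replicate 1 of NBRC 0224 with 0.6% AcOH, and its adjusted p reached 0.27 in the others. The NFRI 3145 response was called under quantile normalization (adjusted p = 0.034), median centring (0.041) and a fit of the groups compared alone (0.021), and without either array of NBRC 0224 with 0.6% AcOH (0.013 each).

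AAC1, the minor aerobic carrier gene, read 1269 and 1152 units in NFRI 3145 with 0.6% AcOH, against 874 and 1191 with 0% AcOH. It read 853 and 759 units in NBRC 0224 with 0.6% AcOH, against 698 and 679 with 0% AcOH. The groups overlapped in NFRI 3145 and lay close together in NBRC 0224. Neither difference was called (0.24 ± 0.21, adjusted p = 0.52 in NFRI 3145 and 0.23 ± 0.21, adjusted p = 0.55 in NBRC 0224, limma).

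The balance of the hypoxic over the aerobic isoform gene was followed as the log2 ratio of the 2 signals within each array. The ratio of 2 probe sets does not give a ratio of RNA, but its shift between groups does not depend on the scaling factor of the array. With acid AAC3/PET9 shifted by -1.83 in NFRI 3145 and by -1.91 in NBRC 0224, with no overlap in either strain. ANB1/HYP2 shifted by -0.55 in NFRI 3145, without overlap, and by -0.26 in NBRC 0224, where the arrays overlapped. HMG2/HMG1, the sterol pathway's hypoxic and aerobic HMG-CoA reductase genes, shifted by -1.20 in NFRI 3145 and by -0.87 in NBRC 0224, without overlap. The shift of AAC1/PET9, by contrast, was -0.09 in NFRI 3145 and -0.24 in NBRC 0224, and the arrays overlapped in both.

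**Figure D3:**
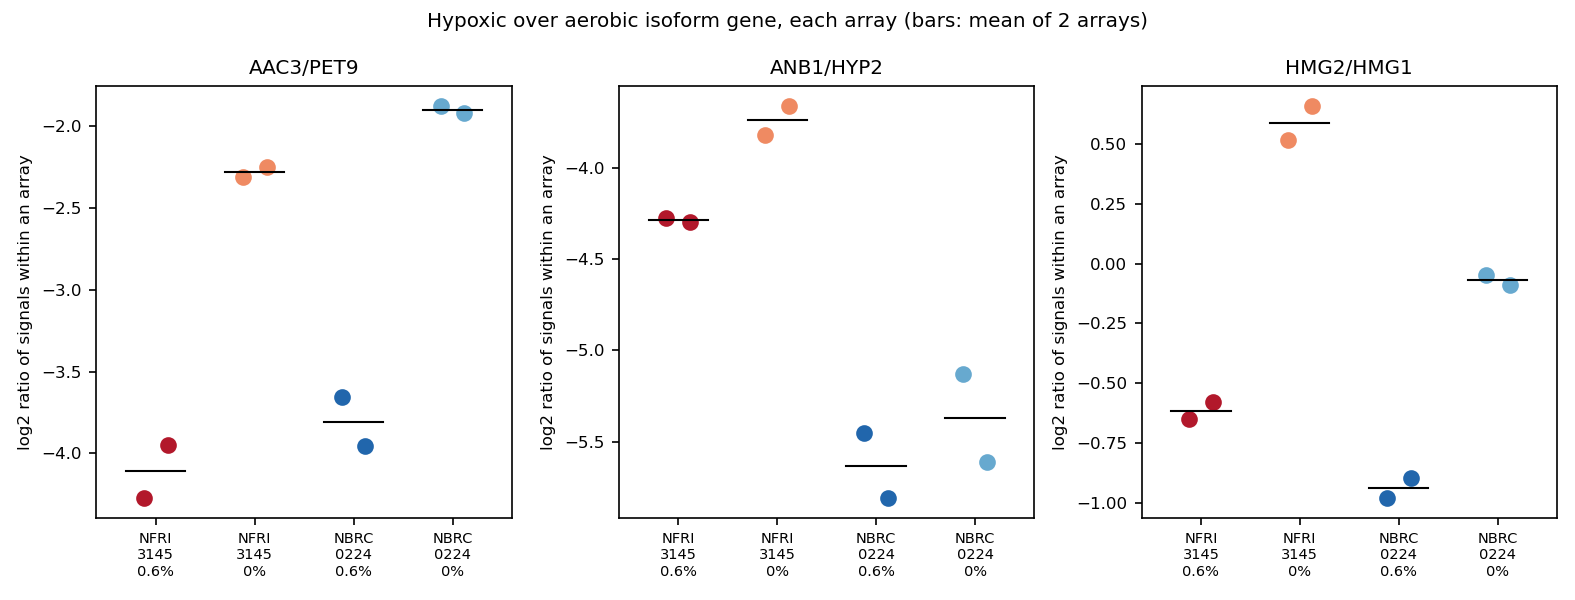
Log2 ratio of the hypoxic over the aerobic isoform gene within each array for AAC3/PET9, ANB1/HYP2 and HMG2/HMG1; points are arrays and bars the mean of 2 arrays. The height of a ratio reflects the probe sets and is not a ratio of RNA; the AAC3/PET9 and HMG2/HMG1 ratios were lower with 0.6% AcOH in both strains, and ANB1/HYP2 was higher in NFRI 3145 than in NBRC 0224.

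ANB1 and HYP2 encode nearly identical forms of eIF5A, the factor that helps ribosomes through difficult peptide bonds; ANB1 is the hypoxic gene. In NFRI 3145, ANB1 read 1414 and 1200.4 units with 0.6% AcOH, against 1885 and 1998 with 0% AcOH. In NBRC 0224, ANB1 read 491 and 496 units with 0.6% AcOH, against 619 and 433 with 0% AcOH. The NFRI 3145 groups did not overlap, while in NBRC 0224 the acid-treated arrays lay between the untreated ones. Neither response was called (-0.57 ± 0.22, adjusted p = 0.11 in NFRI 3145 and -0.07 ± 0.22, adjusted p = 0.88 in NBRC 0224, limma). A fit of the NFRI 3145 arrays alone called the first of these (adjusted p = 0.021). HYP2, the aerobic gene, read 27308 and 23565 units with acid, against 26540.4 and 25196 without, in NFRI 3145, and 21528 and 27818 with acid, against 21668 and 21224 without, in NBRC 0224. Its groups overlapped in both strains, and its differences of -0.03 ± 0.13 and 0.19 ± 0.13 were not called (adjusted p = 0.92 and 0.40, limma).

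Of the regulators, HAP1 encodes the heme-responsive activator; the gene of the laboratory reference strain carries a retrotransposon insertion, and its state in NFRI 3145 and NBRC 0224 was not tested. In NFRI 3145, HAP1 read 157 and 118 units with 0.6% AcOH, against 271 and 291 with 0% AcOH. In NBRC 0224, HAP1 read 152 and 177 units with 0.6% AcOH, against 199 and 245 with 0% AcOH. Acid-treated arrays were the lower ones in both strains, with no overlap. HAP1 was 2.06-fold lower in NFRI 3145 (-1.05 ± 0.25, adjusted p = 0.021, limma), and the difference of -0.42 ± 0.25 in NBRC 0224 was not called (adjusted p = 0.34). The NFRI 3145 call was lost without replicate 1 (adjusted p = 0.065) or replicate 2 (0.12) of NFRI 3145 with 0% AcOH, without replicate 2 of NFRI 3145 with 0.6% AcOH (0.14), and under median centring (-0.81, adjusted p = 0.054).

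ROX1, the repressor's own gene, read 36.5 and 35.7 units in NFRI 3145 with 0.6% AcOH, against 32.9 and 43.5 with 0% AcOH. It read 32.1 and 30.6 units in NBRC 0224 with 0.6% AcOH, against 19.9 and 30.2 with 0% AcOH. With 6 of 8 arrays at or below background, no fold is given, and a change of ROX1 was not detectable at this signal.

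The list of regulators of heme, oxygen and sterol signalling held 13 genes, of which 7 were tested. Like the other lists, it was chosen with earlier results of these data known. MOT3, MGA2 and the 4 HAP2/3/4/5 complex genes were above background on fewer than 2 arrays. In NFRI 3145, 1 of the 7 was called higher and 2 lower, where 13.5% of all tested genes were called, and in NBRC 0224 none was, where 8.4% were. ECM22, an activator of sterol synthesis genes, fell by 1.07 ± 0.25 in NFRI 3145 (adjusted p = 0.018, limma; called in 5 of 8 fits that left out an array). SPT23, an activator of the fatty acid desaturase gene OLE1, was not above background in NFRI 3145 without acid and was at least 1.15-fold higher with it (adjusted p = 0.043, limma; called in 2 of 8 such fits). The SPT23 call was lost with log2(signal + 32) (0.57, adjusted p = 0.099, limma). The sterol regulator UPC2 was not called (-0.79 ± 0.31, adjusted p = 0.11 in NFRI 3145 and -0.43 ± 0.31, adjusted p = 0.41 in NBRC 0224, limma).

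HEM13 was the only one of the 8 heme synthesis genes called in response to acid, in either strain. With 13.5% of all tested genes called in NFRI 3145 and 8.4% in NBRC 0224, 1 of 8 is near the background. HEM1, the aminolevulinate synthase gene that opens the pathway, read 18235 and 16653 units with acid, against 18832 and 18092 without, in NFRI 3145. In NBRC 0224, HEM1 read 16963 and 20809.6 units with acid, against 15127 and 15913 without. The NBRC 0224 groups did not overlap and the NFRI 3145 groups did, but neither difference was called (-0.08 ± 0.12, adjusted p = 0.72 in NFRI 3145 and 0.28 ± 0.12, adjusted p = 0.20 in NBRC 0224, limma). Without replicate 1 of NBRC 0224 with 0.6% AcOH the NBRC 0224 difference was called (0.42, adjusted p = 0.014). HEM14, protoporphyrinogen oxidase, the other oxygen-consuming step, read 57.1 and 84.7 units with acid, against 56.1 and 67.4 without, in NFRI 3145, and 29.1 and 19.2 with acid, against 46.3 and 34.6 without, in NBRC 0224. Its NFRI 3145 groups overlapped, and it was not above background in NBRC 0224 with acid; neither difference was called (adjusted p = 0.84 in NFRI 3145 and 0.31 in NBRC 0224, limma). In the R64 annotation HEM14 overlaps BUD25 by 489 bases, and how the 2 genes share signal was not tested. HEM12, uroporphyrinogen decarboxylase, was not called (-0.61 ± 0.20, adjusted p = 0.065 in NFRI 3145 and -0.44 ± 0.20, adjusted p = 0.20 in NBRC 0224, limma). The median of the 8 genes was -0.14 in NFRI 3145 and -0.29 in NBRC 0224, and HEM2, HEM3, HEM4 and HEM15 were not called in either strain.

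The wider set of genes that Rox1 is known to repress held 16 genes, of which 15 were tested, with ROX1, ANB1, AAC3 and HEM13 among them. This set, too, was chosen with earlier results of these data known. HEM13 and AAC3 are counted in it, so its counts and medians are a description and not independent support. In NFRI 3145, 7 of the 15 were called lower and 1 higher, against 9.67% and 3.82% of all tested genes. In NBRC 0224, 7 of the 15 were called lower and none higher, against 4.8% and 3.61%. The median difference was -0.57 in NFRI 3145 and -0.87 in NBRC 0224, against -0.07 and -0.11 over all tested genes. In NFRI 3145 the count of 7 ranged from 6 to 7 when single arrays were left out. In NBRC 0224 it was less steady. It was 3 without replicate 1 of NBRC 0224 with 0% AcOH, and 4 without its replicate 2 or without any of the 4 NFRI 3145 arrays. It was also 3 with no mean-variance trend and 4 in a fit of the NBRC 0224 arrays alone.

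The members of that set called lower in both strains, beside HEM13 and AAC3, were OLE1, HMG2, SUR2 and TIR1. OLE1, the fatty acid desaturase gene, whose product uses oxygen, read 3109 and 3208.5 units with acid, against 7966 and 6959 without, in NFRI 3145, and 7525 and 5653 with acid, against 15459 and 13826 without, in NBRC 0224. It fell in both strains without overlap, by 1.24 ± 0.16 in NFRI 3145 (adjusted p = 6.0e-04, limma) and by 1.16 ± 0.16 in NBRC 0224 (adjusted p = 0.0014, limma), under all 17 other settings. HMG2 fell by 1.14 ± 0.14 in NFRI 3145 (adjusted p = 5.1e-04, limma) and by 0.93 ± 0.14 in NBRC 0224 (adjusted p = 0.0029, limma; 0.053 without replicate 1 of NBRC 0224 with 0% AcOH). SUR2, a sphingolipid hydroxylase gene, fell by 1.20 ± 0.34 (adjusted p = 0.038) in NFRI 3145 and by 1.29 ± 0.34 (adjusted p = 0.040) in NBRC 0224, calls that held in 2 and 1 of the 8 fits without an array. TIR1, a cell wall mannoprotein gene of anaerobic and cold-grown cells, fell by 2.06 ± 0.13 in NFRI 3145 (adjusted p = 7.7e-06, limma) and by 0.55 ± 0.13 in NBRC 0224 (adjusted p = 0.029, limma; called in 2 of the 8 fits and not under median centring, at -0.40 with an adjusted p of 0.16).

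FET4, a low-affinity metal transporter gene, fell by 1.32 ± 0.22 in NFRI 3145 (adjusted p = 0.0026, limma) and was at -0.09 in NBRC 0224. EUG1, which encodes a protein disulfide isomerase of the endoplasmic reticulum, rose in NFRI 3145 by 0.92 ± 0.24 (adjusted p = 0.030, limma; called in 3 of the 8 fits) and fell by 0.87 ± 0.24 in NBRC 0224 (adjusted p = 0.049, limma; called in 1 of the 8 and under neither other scaling, with an adjusted p of 0.073 under quantile normalization and 0.089 under median centring). The sterol demethylase gene ERG11, its reductase partner NCP1, the mannoprotein gene DAN1 and the sterol transporter gene AUS1 were not called in either strain. COX5B was above background on 2 arrays only, and CYC7 on none.

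**Figure D4:**
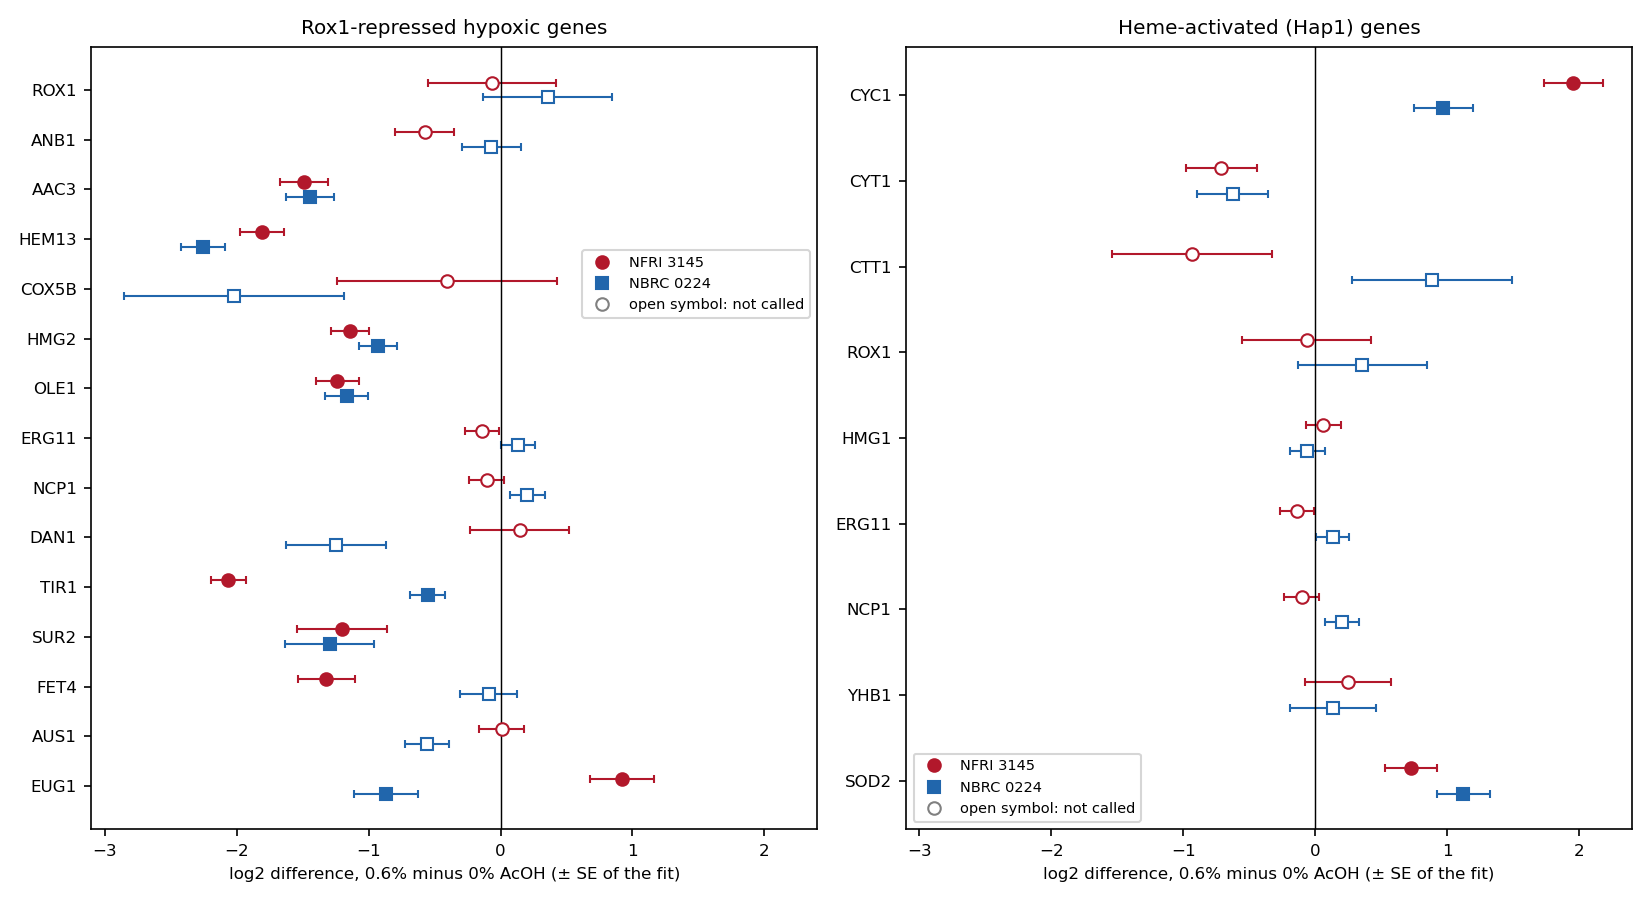
Log2 difference, 0.6% minus 0% AcOH, of the tested genes known to be repressed by Rox1 (left) and activated by Hap1 (right) in NFRI 3145 (red circles) and NBRC 0224 (blue squares); bars are ± 1 SE and filled symbols mark calls. On the left 7 of 15 genes were called lower in each strain, and on the right CYC1 and SOD2 were called higher in both. ROX1 and COX5B rest on signals at or near background and CTT1 on signals mostly below it. The points of these genes are not measured changes.

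Of the 12 genes listed as activated by heme through Hap1, 9 were tested, and 2 were called higher in each strain, CYC1 and SOD2, with none lower. Over all tested genes 3.82% were higher and 9.67% lower in NFRI 3145, and 3.61% higher and 4.8% lower in NBRC 0224. CYC1, the aerobic cytochrome c gene and the R64 neighbour of ANB1, read 1154 and 1323 units with acid, against 296 and 343 without, in NFRI 3145, and 1119 and 968 with acid, against 608 and 464 without, in NBRC 0224. It rose by 1.96 ± 0.22 in NFRI 3145 (adjusted p = 2.9e-04, limma) and by 0.97 ± 0.22 in NBRC 0224 (adjusted p = 0.023, limma; called in 4 of the 8 fits without an array). SOD2, the mitochondrial superoxide dismutase gene, rose by 0.72 ± 0.20 in NFRI 3145 (adjusted p = 0.033, limma; called in 2 of the 8; 0.079 under quantile normalization) and by 1.12 ± 0.20 in NBRC 0224 (adjusted p = 0.0060, limma; 0.084 without replicate 1 of NBRC 0224 with 0% AcOH). The other 7 were not called. Among them CYT1, the cytochrome c1 gene, was lower with acid in both strains, with no overlap. It read 404 and 356 units with acid, against 521 and 741 without, in NFRI 3145. In NBRC 0224 it read 2301 and 1366 units with acid, against 2733 and 2738 without. The median of the 9 was -0.07 in NFRI 3145 and 0.20 in NBRC 0224. In NFRI 3145 that median is the value of ROX1, which lay at or near background and is not a measured change. CTT1 was above background on 2 of 8 arrays.

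Among 10 genes of heme use and breakdown, 9 were tested. CYC3, which attaches heme to cytochrome c, rose in NBRC 0224 by 0.82 ± 0.23 (adjusted p = 0.049, limma; called in 1 of the 8 fits without an array), and none was called in NFRI 3145. Neither enzyme gene of the eIF5A modification, DYS1 or LIA1, was called in either strain. Of 6 other mitochondrial carriers, MIR1, the main phosphate carrier, rose in NBRC 0224 by 0.49 ± 0.11 (adjusted p = 0.023, limma; called in 4 of the 8). In NFRI 3145, SAL1, an ATP-Mg/phosphate carrier, rose by 0.98 ± 0.29 (adjusted p = 0.048, limma; 3 of the 8), and PIC2, a copper and phosphate carrier, fell by 1.10 ± 0.24 (adjusted p = 0.013, limma; 5 of the 8). Of the 6 genes in the other isoform pairs, 5 were tested, and CYC1 and HMG2, described above, were called in each strain. Beside these counts, 13.5% of all tested genes were called in NFRI 3145 and 8.4% in NBRC 0224.

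The next gene to HEM13 in the R64 order is NRG1, a repressor gene of glucose repression, named here after its values were seen. NRG1 read 62.3 and 41.5 units with acid, against 287 and 354 without, in NFRI 3145, and 48.7 and 21.3 with acid, against 79.9 and 126 without, in NBRC 0224, where 1 of the 2 acid-treated arrays was above background. It fell by 2.65 ± 0.42 in NFRI 3145 (adjusted p = 0.0021, limma) and by 1.64 ± 0.42 in NBRC 0224 (adjusted p = 0.036, limma; called in 3 of the 8 fits without an array). BUD25, which overlaps HEM14, was above background on 2 of 8 arrays only, both of NFRI 3145 with 0% AcOH (118 and 104 units). It passed the filter only through that group, so its difference is given as a description and not as a test. BUD25 was not above background in NFRI 3145 with acid and was at least 2.66-fold lower there than without it, while the HEM14 signals of those groups overlapped.

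The acid responses of the 2 strains were then set against each other for each gene. None of the 10 genes was called for a difference between its responses, where 0.851% of all tested genes were called (0.206% higher and 0.644% lower), and none of the 10 had an unadjusted p under 0.05 in limma, against 671 of the 3879 genes. In simulated data 13.1% of 2-fold differences of this kind were recovered, so a gene not called may still differ. Differences are NFRI 3145 minus NBRC 0224. For HEM13 it was 0.45 (95% interval -0.07 to 0.96, adjusted p = 0.34), and for AAC3 -0.05 (-0.62 to 0.53, adjusted p = 0.95). For HAP1 it was -0.62 (-1.41 to 0.16, adjusted p = 0.39), so the call in NFRI 3145 alone is not shown to be particular to that strain. PET9 differed by -0.12 (-0.51 to 0.26) and ANB1 by -0.50 (-1.19 to 0.19, adjusted p = 0.43). HEM1, at -0.36 (-0.74 to 0.02), was called only without replicate 1 of NBRC 0224 with 0.6% AcOH (-0.51, adjusted p = 0.034).

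The strains themselves differed at more of the 10 genes than acid changed, as they did across the genome. With 0.6% AcOH, 5 of the 10 were called between NFRI 3145 and NBRC 0224, ANB1, AAC1 and HEM14 higher and AAC3 and PET9 lower in NFRI 3145, where 46.1% of all tested genes were called. With 0% AcOH, 5 were called, ANB1 and AAC1 higher and AAC3, PET9 and HEM13 lower, where 50.2% of all were. A share of 5 in 10 is thus near the background. The probes were designed on a reference strain and how well they match NFRI 3145 and NBRC 0224 was not tested, so a lower transcript level and a poorer probe match cannot be told apart. The 0% arrays serve both the strain comparison and the acid responses, so these results are not independent.

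ANB1 was higher in NFRI 3145 in both conditions. With acid it read 1414 and 1200.4 units in NFRI 3145, against 491 and 496 in NBRC 0224. Without acid it read 1885 and 1998 units in NFRI 3145, against 619 and 433 in NBRC 0224. All 4 NFRI 3145 arrays were above all 4 NBRC 0224 arrays. ANB1 was 2.64-fold higher in NFRI 3145 with acid (1.40 ± 0.22, adjusted p = 3.6e-04, limma) and 3.75-fold higher without it (1.91 ± 0.22, adjusted p = 3.3e-05, limma), under all 17 other settings. Its partner HYP2 was not called in either condition (0.05 ± 0.13, adjusted p = 0.78 with acid and 0.27 ± 0.13, adjusted p = 0.11 without, limma). This depended on the setting. HYP2 was called higher in NFRI 3145 under median centring, with acid (0.54, adjusted p = 0.031) and without it (0.68, adjusted p = 0.0083). Without acid it was also called in a fit of the compared groups alone (adjusted p = 0.0046) and without either array of NBRC 0224 with 0.6% AcOH (0.016 each). The within-array ratio ANB1/HYP2 was higher in NFRI 3145 by 1.35 with acid and by 1.64 without it, with no overlap.

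The carriers AAC3 and PET9 were both lower in NFRI 3145. The AAC3 signals given above make it 1.98-fold lower with acid (-0.99 ± 0.18, adjusted p = 0.0011, limma) and 1.92-fold lower without it (-0.94 ± 0.18, adjusted p = 0.0013, limma), under all 17 other settings. PET9 was lower in NFRI 3145, with a difference of -0.68 ± 0.12 with acid (adjusted p = 9.2e-04, limma) and -0.56 ± 0.12 without it (adjusted p = 0.0029, limma), and no PET9 array of NFRI 3145 reached those of NBRC 0224 in the same condition. Both PET9 calls were lost under median centring, at -0.19 (adjusted p = 0.37) with acid and -0.15 (adjusted p = 0.47) without, a scaling that put the median gene at 0.26 and 0.35. The AAC3/PET9 ratio differed by -0.30 with acid, where the arrays overlapped, and by -0.38 without it, with no overlap.

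AAC1 was higher in NFRI 3145 with acid (0.59 ± 0.21, adjusted p = 0.042, limma) and without it (0.57 ± 0.21, adjusted p = 0.045, limma), and its arrays did not overlap in either condition. These calls lay at the threshold. With acid, the call was lost without either array of NBRC 0224 with 0% AcOH (adjusted p = 0.062 each), without replicate 2 of NBRC 0224 with 0.6% AcOH (0.097), and without replicate 1 (0.21) or replicate 2 (0.11) of NFRI 3145 with 0.6% AcOH. Without acid, it was lost without replicate 1 (0.12) or replicate 2 (0.15) of NBRC 0224 with 0% AcOH, without replicate 2 of NFRI 3145 with 0% AcOH (0.31), and without either array of NFRI 3145 with 0.6% AcOH (0.075 each).

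HEM13 was 1.48-fold lower in NFRI 3145 without acid (-0.56 ± 0.17, adjusted p = 0.015, limma) and did not differ detectably with it (-0.12 ± 0.17, adjusted p = 0.60, limma). The call was lost without replicate 1 of NBRC 0224 with 0% AcOH (-0.45, adjusted p = 0.13), without replicate 1 (-0.59, adjusted p = 0.058) or replicate 2 (-0.54, adjusted p = 0.082) of NFRI 3145 with 0% AcOH, with no mean-variance trend (adjusted p = 0.063) and under median centring (-0.15, adjusted p = 0.48). HEM14 was not above background in NBRC 0224 with acid and was at least 1.86-fold higher in NFRI 3145 (adjusted p = 0.011, limma). That call was lost without replicate 2 of NFRI 3145 with 0.6% AcOH (adjusted p = 0.078) or replicate 2 of NBRC 0224 with 0.6% AcOH (0.051). Without acid the HEM14 difference was 0.62 ± 0.42 (adjusted p = 0.24, limma). HAP1 was not called with acid (-0.27 ± 0.25, adjusted p = 0.41) or without it (0.35 ± 0.25, adjusted p = 0.27), but without acid it was called higher in NFRI 3145 under quantile normalization (0.90, adjusted p = 0.016) and median centring (0.76, adjusted p = 0.027). HEM1 was not called either (-0.11 ± 0.12, adjusted p = 0.50 with acid and 0.25 ± 0.12, adjusted p = 0.11 without). With acid it was called lower under quantile normalization (-0.20, adjusted p = 0.034) and without replicate 1 of NBRC 0224 with 0.6% AcOH (-0.26, adjusted p = 0.0498). Without acid it was called higher under median centring (0.66, adjusted p = 0.0070), with the compared groups alone (0.013) and without either array of NBRC 0224 with 0.6% AcOH (0.018 each).

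**Figure D5:**
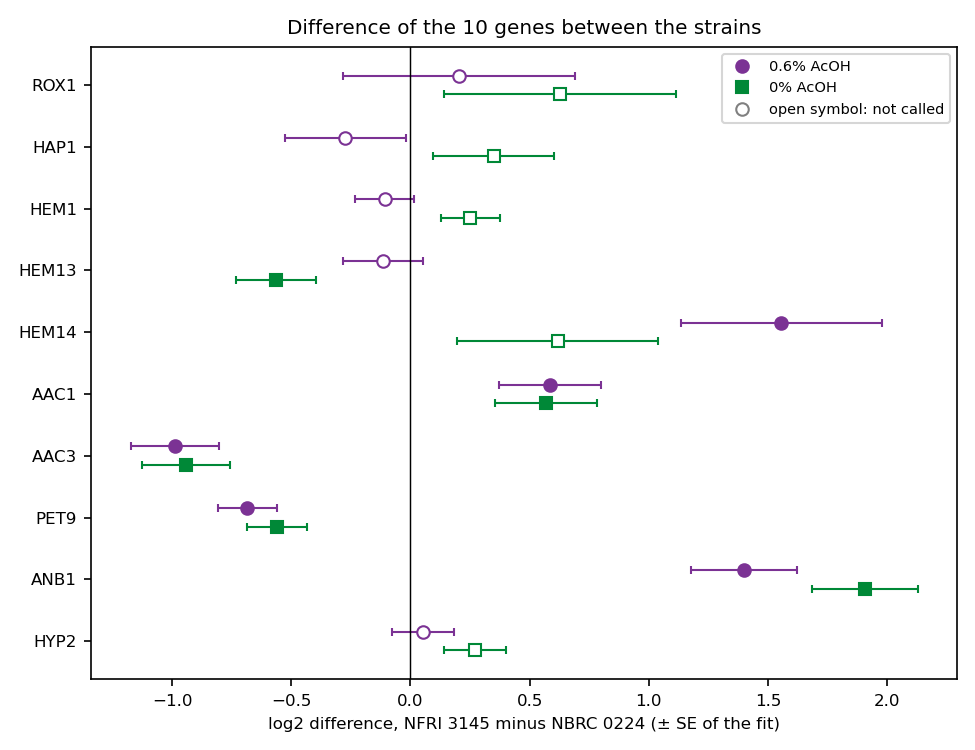
Log2 difference of each of the 10 genes, NFRI 3145 minus NBRC 0224, with 0.6% AcOH (purple circles) and 0% AcOH (green squares); bars are ± 1 SE of the limma fit and filled symbols mark calls. ANB1 lies at 1.40 and 1.91, AAC3 at -0.99 and -0.94 and PET9 at -0.68 and -0.56; ROX1 rests on signals at or near background, and HEM14 with acid, not above background in NBRC 0224, is only at least 1.86-fold higher.

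In the heme synthesis list the widest strain difference was at HEM2, porphobilinogen synthase. It read 948 and 1058 units in NFRI 3145 with acid, against 7364 and 5523 in NBRC 0224, and 1248 and 1049.8 in NFRI 3145 without acid, against 5964 and 6588 in NBRC 0224. No arrays of the strains overlapped, and HEM2 was 6.37-fold lower in NFRI 3145 with acid (-2.67 ± 0.19, adjusted p = 1.4e-06, limma) and 5.48-fold lower without it (-2.45 ± 0.19, adjusted p = 1.5e-06, limma). Of the 8 heme synthesis genes, 1 was called higher (HEM14) and 1 lower with acid, and none higher and 2 lower (HEM2 and HEM13) without it, against 17.4% higher and 28.7% lower, and 21.1% higher and 29.1% lower, of all tested genes.

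The regulator list had 3 of 7 genes lower in NFRI 3145 in both conditions and none higher, where 28.7% of all tested genes were lower with acid and 29.1% without it. TUP1, the corepressor gene, differed by -1.34 ± 0.14 with acid (adjusted p = 2.1e-05, limma) and by -1.67 ± 0.14 without it (adjusted p = 3.1e-06, limma). ECM22 differed by -1.48 ± 0.25 with acid and by -0.75 ± 0.25 without it (adjusted p = 6.0e-04 and 0.027, limma). SPT23 differed by -1.21 ± 0.34 with acid (adjusted p = 0.012, limma) and, not above background in NFRI 3145 without acid, at least 3.61-fold lower there (adjusted p = 4.0e-05, limma). The ECM22 call without acid held in 5 of the 8 fits that left out an array, and the SPT23 call with acid in 7, all but the one without replicate 2 of NBRC 0224 with 0.6% AcOH. Both were lost under scaling: ECM22 without acid was at -0.27 under quantile normalization (adjusted p = 0.37) and -0.34 under median centring (0.24), and SPT23 with acid had an adjusted p of 0.093 and 0.12.

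Of the 15 Rox1-repressed genes tested, 7 were called lower and 2 higher in NFRI 3145 with acid, and 8 lower and 1 higher without it, against 28.7% lower and 17.4% higher, and 29.1% lower and 21.1% higher, of all tested genes. AAC3, EUG1, FET4, OLE1, SUR2 and TIR1 were lower in both conditions, NCP1 with acid only, and HEM13 and DAN1 without acid only; the difference between conditions was called for EUG1 and TIR1 and for none of the others. ANB1 was the one gene higher in both. COX5B was called higher with acid, but with 1 array of 4 above background no fold is given. EUG1 differed by -2.04 ± 0.24 with acid and by -3.83 ± 0.24 without it (adjusted p = 4.6e-05 and 3.4e-07, limma), and TIR1 by -2.54 ± 0.13 with acid and -1.03 ± 0.13 without it (adjusted p = 1.4e-07 and 7.0e-05, limma). With single arrays left out, the calls of SUR2 in either condition, of FET4 without acid and of COX5B held in 5 of 8 fits, and that of DAN1 in 6. Scaling ended the call of FET4 without acid, at -0.16 under quantile normalization (adjusted p = 0.56) and -0.22 under median centring (0.36). It also ended those of SUR2, at -0.73 and -0.57 with acid (adjusted p = 0.11 and 0.14) and -0.81 and -0.75 without it (0.067 and 0.053), and, under median centring, that of NCP1 with acid. The list's median was -0.13 with acid and -0.56 without it, against -0.23 and -0.06 over all tested genes.

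Among the Hap1-activated genes, 4 of 9 were called lower in NFRI 3145 in each condition and none higher, where 28.7% of all tested genes were lower with acid and 29.1% without it. CYT1, cytochrome c1, differed by -2.22 ± 0.27 with acid and by -2.14 ± 0.27 without it (adjusted p = 4.9e-05 and 5.5e-05, limma). YHB1, a flavohemoglobin that detoxifies nitric oxide, differed by -2.65 ± 0.32 with acid and by -2.77 ± 0.32 without it (adjusted p = 5.4e-05 and 3.3e-05, limma). HMG1 differed by -0.41 ± 0.13 with acid and by -0.53 ± 0.13 without it (adjusted p = 0.026 and 0.0062, limma), NCP1 by -0.63 ± 0.13 with acid (adjusted p = 0.0024, limma) and CYC1 by -0.74 ± 0.22 without it (adjusted p = 0.017, limma). Of these, CYT1 and YHB1 were still called lower under median centring in each condition. There HMG1 was at 0.079 with acid (adjusted p = 0.73) and -0.12 without it (0.58), NCP1 at -0.14 with acid (0.55) and CYC1 at -0.32 without it (0.21). Quantile normalization also ended the CYC1 call (-0.19, adjusted p = 0.49). With single arrays left out, the HMG1 calls held in 3 of 8 fits with acid and 7 without it, and the CYC1 call in 6.

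CYT1 and YHB1 were also the genes of the heme use list called in both conditions, joined with acid by the heme A synthase gene COX15 (-0.39 ± 0.13, adjusted p = 0.031, limma; under median centring the difference was 0.095, adjusted p = 0.64). The 2 enzymes that modify eIF5A, the product of ANB1 and HYP2, differed in opposite directions: DYS1, deoxyhypusine synthase, was lower (-2.91 ± 0.31 with acid and -2.20 ± 0.31 without it; adjusted p = 2.1e-05 and 1.3e-04, limma), and LIA1, deoxyhypusine hydroxylase, was higher (0.77 ± 0.25 with acid and 1.14 ± 0.25 without it; adjusted p = 0.024 and 0.0025, limma). COX5A, the aerobic cytochrome oxidase subunit gene of the isoform pairs, was higher by 0.68 ± 0.15 with acid and 0.77 ± 0.15 without it (adjusted p = 0.0038 and 0.0015, limma). Of the carriers, PIC2 differed by -1.77 ± 0.24 with acid and by -1.14 ± 0.24 without it (adjusted p = 1.2e-04 and 0.0023, limma), and MIR1 higher by 0.30 ± 0.11 without acid (adjusted p = 0.046, limma). With single arrays left out, the call of COX15 held in 2 of 8 fits, that of LIA1 with acid in 5 and that of MIR1 in 2. Under quantile normalization MIR1 was at 0.048 (adjusted p = 0.60). Beside the calls of these lists, 46.1% of all tested genes were called between the strains with acid and 50.2% without it.

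Across the 8 arrays, which share their strains and treatments, HEM13 and AAC3 had a Pearson r of 0.897, HEM1 and HYP2 0.890, and PET9 and ANB1 -0.881. The genes whose signal most resembled HEM13, AAC3, ANB1 or ROX1 over the 8 arrays were taken by the highest Pearson r of log2 signal among the tested genes. For HEM13 they were ADH5 (0.989), THI3 (0.982) and YBR182C-A (0.977). For AAC3 they were ADE1 (0.994), IRC23 (0.988) and CCC1 (0.983). For ANB1 they were SFT2 (0.993), DBF2 (0.990) and YGR146C-A (0.985). For ROX1, whose signal lay at background, they were SHH3 (0.968), YPT1 (0.941) and POP3 (0.936). With 4 groups setting the pattern and 3879 genes searched, high values are common, and they are given as a description.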

How the data were processed

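RNA (labelled polyA RNA, hot phenol extraction) of 8 samples was hybridised to Affymetrix Yeast Genome 2.0 arrays. The deposited value table gives 1 intensity per probe set and array, which the authors made with GCOS, per the submitters' processing notes; its version and settings are not given in the sources used here. From the values, the mean after trimming 2% at each end was 500.7 to 500.8 on every array, so the scaling was kept. Of 10928 probe sets, 213 were controls, 7244 had 1 gene symbol in the platform annotation, 1 had several and 3470 had none; 12 symbols were updated from RefSeq R64, which was used for names and neighbours only. The 5498 probe sets of S. cerevisiae genes gave 5449 genes; 3879 above background on at least 2 arrays were tested and 1570 were not. Log2 intensities entered limma 3.58.1 (R 4.3.3; 4 group means, trended empirical Bayes, residual df 4, 5 comparisons, no block); Python 3.11.15 and matplotlib 3.10.9 made the summaries and figures. The fit was tested on simulated data in which 200 of 3879 genes were changed in each comparison. It recovered 30.85% to 33.9% of 2-fold changes in the acid and strain comparisons, and 13.1% for the difference of responses. For 4-fold changes these values were 72.8% to 75.95% and 52.7%. A gene not called is therefore not shown to be unchanged. In the data 1949 genes were called between the strains with 0% AcOH and 1789 with 0.6% AcOH. The simulation changed far fewer, so its rates do not carry over to the strain comparisons. They are also averages over all genes, whose SE differed, as 0.13 for HYP2 and 0.49 for ROX1. The numbers of the labels did not pair arrays (correlation of deviations -0.05 to 0.05). The 10 genes were all named, as was every called gene of the lists; the genes, lists and tests were chosen with earlier results of these data known. Arrays give no counts, so their number limits the precision. Alternatives tried were quantile normalization, median centring, other background filters, log2(signal + 32), no variance trend, means over probe sets, the replicate number as a block, the compared groups alone, and each array left out. No sequences were used here.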

Additional observations from a re-analysis of the deposited data

Results flagged for a closer look

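The acid response of TIR1, a cell wall mannoprotein gene that Rox1 represses, differed between the strains by -1.51 ± 0.19 on the log2 scale (NFRI 3145 minus NBRC 0224, adjusted p = 0.0041, limma interaction); the call was lost with no mean-variance trend (adjusted p = 0.078) and without replicate 1 of NBRC 0224 with 0% AcOH (0.060). The response of EUG1, the disulfide isomerase gene, differed by 1.79 ± 0.34 in the other direction (adjusted p = 0.040, limma interaction), and this call held in 2 of the 8 fits that left out an array, with an adjusted p of up to 0.18; it was lost with no filter on dim probe sets (0.055) and with no trend (0.099). EUG1 signals in NFRI 3145 were 138 and 133 units with acid and 81.9 and 62.6 without, and in NBRC 0224 were 630 and 488 units with acid and 1013 and 1016 without. The cause of either difference was not tested.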

How the results depend on the processing

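Of the 430 gene-level values of the 10 genes under settings other than leaving out an array, 387 kept their direction and side of the threshold, 13 lost and 12 gained a call, and 18 changed sign, none of them called. For the 400 values with 1 array left out these numbers were 350, 25, 10 and 15. "Above background on all 8 arrays" gave no value for ROX1 and HEM14, and a fit of the compared groups alone does not apply to the difference of responses. The count of the 10 genes called was 5 in the fit of the NFRI 3145 arrays alone for its acid response, and 3 with no mean-variance trend for the strain difference with 0% AcOH. With 1 array left out it ranged from 2 to 4 for the acid response of NFRI 3145, 2 to 5 for that of NBRC 0224, 0 to 1 for their difference, 3 to 6 for the strain difference with 0.6% AcOH and 3 to 7 with 0% AcOH. The Rox1-repressed counts were examined under all settings after the data were seen. In NFRI 3145 the count was 6 to 7 with an array left out. In NBRC 0224 it was 3 with no trend, 4 with the compared groups alone and 3 to 8 with an array left out.

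Values that changed sign, on the log2 scale, were these. Under quantile normalization the acid response was 0.41 for ROX1 and 0.038 for HYP2 in NFRI 3145, and 0.027 for ANB1 and -0.043 for HYP2 in NBRC 0224. The difference of responses was -0.11 for AAC1, 0.056 for AAC3 and 0.081 for HYP2. The strain difference was 0.22 for HAP1 and 0.036 for HEM13 with 0.6% AcOH, and -0.042 for HEM1 with 0% AcOH. Under median centring the acid response was 0.17 for ROX1, 0.15 for HEM1 and 0.21 for HYP2 in NFRI 3145 and 0.085 for ANB1 in NBRC 0224. The difference of responses was 0.032 for AAC3, and the strain difference with 0.6% AcOH was 0.22 for HAP1, 0.38 for HEM1, 0.37 for HEM13, 0.079 for HMG1 and 0.095 for COX15. With 1 array left out, the acid response in NFRI 3145 ranged from -0.27 to 0.14 for ROX1, -0.11 to 0.46 for HEM14 and -0.13 to 0.079 for HYP2, and in NBRC 0224 from -0.33 to 0.19 for ANB1. The difference of responses ranged from -0.20 to 0.24 for AAC1, -0.21 to 0.12 for AAC3 and -0.26 to 0.014 for PET9. The strain difference with 0.6% AcOH ranged from -0.26 to 0.039 for HEM1, -0.31 to 0.078 for HEM13 and -0.13 to 0.24 for HYP2. The cause was not tested.

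With the replicate number as a block, 3 of the 10 genes were called for the acid response of NFRI 3145, 2 for that of NBRC 0224 (PET9 at adjusted p = 0.052), 0 for their difference, 5 for the strain difference with 0.6% AcOH and 4 with 0% AcOH (AAC1 at adjusted p = 0.052). Scaling moved the split of higher and lower calls over all tested genes. It was 148 and 375 for the acid response of NFRI 3145, against 193 and 261 under quantile normalization and 335 and 285 under median centring. For NBRC 0224 it was 140 and 186, against 204 and 170, and 198 and 128. For their difference it was 8 and 25, against 15 and 39, and 19 and 21. For the strain difference it was 676 and 1113 with 0.6% AcOH, against 848 and 806, and 1159 and 690, and 819 and 1130 with 0% AcOH, against 1109 and 1011, and 1347 and 840. The median tested gene moved to 0.16, 0.05, 0.26 and 0.35 for the acid response of NFRI 3145, that of NBRC 0224 and the strain difference with 0.6% and 0% AcOH under median centring. Over all tested genes, the 523 calls for the acid response of NFRI 3145 became 334 among genes above background on all 8 arrays, 290 or 183 without replicate 1 or 2 of its 0% AcOH arrays and 280 or 334 without replicate 1 or 2 of its 0.6% AcOH arrays. The 326 calls of NBRC 0224 became 104 with no trend, 142 with the compared groups alone, 747 without replicate 1 of its 0.6% AcOH arrays, and 75 or 105 without replicate 1 or 2 of its 0% AcOH arrays. The 33 calls for their difference became 54 under quantile normalization, 117 with log2(signal + 32), 5 with no trend, 50 with the block and 4 to 336 with an array left out. Signals near background limit ROX1 and HEM14.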
